A study of Mus musculus with 79 samples.

Results

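The transcripts described here are 10 noncoding host genes of small nucleolar RNAs (snoRNAs) of the mouse, namely Gas5, Snhg1, Snhg3, Snhg4, Snhg5, Snhg6, Snhg7, Snhg8, Snhg11 and Snhg12. They were chosen by symbol, with earlier results of these data known. All 10 were found among the 20738 gene names present in every one of the 6 expression tables. The study asked how AHCY, the enzyme that removes S-adenosylhomocysteine after methylation reactions, acts on the circadian clock, and it holds 79 RNA-seq libraries. Mouse embryonic fibroblasts (MEF, C57BL/6J background) were either wild type (WT, 18 libraries) or AHCY null after CRISPR-Cas9 editing (KO, 18 libraries). Both lines were collected 12, 16, 20, 24, 28 and 32 h after dexamethasone, with 3 libraries per group. In a separate experiment, MEF of the same background received the solvent DMSO (6 libraries) or 3-deazaneplanocin A (DZnep, 6 libraries), an inhibitor of AHCY, and were collected at 12 and 24 h. All of these fibroblasts, controls included, had been synchronized with 100 nM dexamethasone for 1 h. Punches of the suprachiasmatic nucleus (SCN), the brain's central clock, came from 10-week-old C57BL/6 mice whose hypothalamus was infused with saline (15 libraries) or DZnep (16 libraries). They were taken at circadian times (CT) 3, 9, 15 and 21. Neither the DZnep dose nor the number of knockout clones is given in the labels. A difference between the lines and the loss of AHCY cannot be told apart.

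A snoRNA host gene is transcribed and spliced like a messenger RNA, and its introns are trimmed into snoRNAs, which guide methylation and pseudouridylation of ribosomal RNA. The spliced remainder of a noncoding host carries no conserved protein and is usually removed in the cytoplasm by nonsense-mediated decay, which needs translation. Many of these genes, like ribosomal protein genes, begin with a terminal oligopyrimidine (TOP) stretch. Gas5 was named for its rise when growth of cultured mouse cells is arrested.

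The 8 host genes with an entry in RefSeq's table of promoters (GRCm38.p6) are shown because the start region is a feature that the choice of the genes did not use. Each run covers 60 bases before the annotated start and 50 from it, 5′ to 3′ on the gene's strand. Capitals mark TATA-like letters (TATAAA or TATATA or TATTTATA, beginning 40 to 20 bases before the start, on the given strand only), where present. They also mark the longest run of C and T letters between 10 bases before and 20 bases after the start. For Gas5, the window of its second annotated start is printed.
Gas5 (chr1:161035106-161035215, plus strand): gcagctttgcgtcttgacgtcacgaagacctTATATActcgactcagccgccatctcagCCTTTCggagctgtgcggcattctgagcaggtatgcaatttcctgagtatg
Snhg1 (chr19:8723427-8723536, plus strand): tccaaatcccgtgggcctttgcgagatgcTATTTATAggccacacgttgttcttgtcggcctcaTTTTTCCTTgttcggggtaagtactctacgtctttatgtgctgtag
Snhg5 (chr9:88522848-88522957, minus strand): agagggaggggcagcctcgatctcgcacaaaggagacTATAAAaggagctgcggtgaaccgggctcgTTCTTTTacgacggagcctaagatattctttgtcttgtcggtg
Snhg7 (chr2:26640195-26640304, minus strand): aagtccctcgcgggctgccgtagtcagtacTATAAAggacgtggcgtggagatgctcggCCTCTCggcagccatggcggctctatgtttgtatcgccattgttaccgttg
Snhg8 (chr3:123508287-123508396, minus strand): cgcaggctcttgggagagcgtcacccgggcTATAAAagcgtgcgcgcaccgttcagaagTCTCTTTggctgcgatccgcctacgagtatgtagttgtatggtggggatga
Snhg12 (chr4:132308618-132308727, plus strand): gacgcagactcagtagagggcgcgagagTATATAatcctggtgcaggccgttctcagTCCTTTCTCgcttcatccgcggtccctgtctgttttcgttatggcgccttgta
Snhg3 (chr4:132353637-132353746, minus strand): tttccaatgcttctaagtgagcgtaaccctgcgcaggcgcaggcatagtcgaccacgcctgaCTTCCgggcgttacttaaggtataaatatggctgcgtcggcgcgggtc
Snhg11 (chr2:158375653-158375762, plus strand): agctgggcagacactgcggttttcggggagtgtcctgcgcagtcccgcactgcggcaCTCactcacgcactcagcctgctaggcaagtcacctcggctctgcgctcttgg

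Of these 8 genes, 6 held both features, and Snhg3 and Snhg11 held neither. The window of the first annotated start of Gas5 (chr1:161034541-161034650) also held neither, so that 6 of 9 windows held both, and the shares given next are of windows. TATA-like letters at this place were found in 2.8% of all 32851 windows in the table. A pyrimidine run of 6 or more was found in 28.7% of all windows and in 53.4% of the 73 windows of ribosomal protein genes. Both features together were found in 0.998% of all windows and in 5.48% of the ribosomal protein windows. By a stricter measure, a run of 8 or more C and T letters across the start itself was found in 1 of the 9 host windows, in 3.86% of all windows and in 23.3% of the ribosomal protein windows. These patterns were looked for after the sequences had been seen, and a match of letters describes the window only. In the 300-base windows, the E-box letters CACGTG occurred in 0 of the 9 windows of these genes and in 7.15% of all windows. The letters TGACGTCA occurred in 1 of the 9, a window of Gas5, and in 1.79% of all windows. Both of these motifs read the same on either strand.

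In control fibroblasts 9 of the 10 hosts were well expressed, whereas in the SCN the order was different and Snhg11 stood alone at the top. Values are as deposited, in TPM for WT and KO and in FPKM elsewhere. Both units are scaled for transcript length and library size, and levels are not compared across the experiments. In WT fibroblasts, Snhg1, which hosts Snord22 and 7 other snoRNAs, was highest at 520.1 ± 51.6 TPM (SD, n = 18). Gas5, which holds 8 annotated snoRNAs, followed at 197.3 ± 14.3 TPM, and Snhg6 at 158.5 ± 16.9 TPM. Snhg3, Snhg8 and Snhg5 came next at 111.5 ± 27.3, 99.1 ± 6.8 and 89.4 ± 11.3 TPM, each within the summed SDs of its neighbour in this order. Snhg12, Snhg4 and Snhg7 were lower, at 72.8 ± 4.86, 47.7 ± 7.49 and 28.8 ± 2.79 TPM, and Snhg11 was close to 1 TPM. DMSO fibroblasts also had Snhg1 first at 186 ± 37.1 FPKM and Gas5 second at 79.2 ± 13.9 FPKM (n = 6). There, from Snhg6 (49.5 ± 13.3 FPKM) down to Snhg7 (11.3 ± 1.23 FPKM), each gene lay within the summed SDs of the next in order.

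The saline SCN gave Snhg11, a host known for expression in brain, 107 ± 11.5 FPKM (n = 15), with a range of 89.6 to 126 FPKM. In the fibroblast tables, whose levels are not compared with those of the SCN, it was listed at up to 0.0238 FPKM in DMSO. Snhg12, which hosts Snora16a, Snora44, Snora61 and Snord99, was second in the SCN at 13.5 ± 2.17 FPKM. Snhg1, Snhg8, Snhg6 and Gas5 lay at 9.05 ± 1.94, 8.15 ± 1.48, 6.66 ± 1.72 and 5.85 ± 0.761 FPKM, each within the summed SDs of the next. The remaining 4 lay lower, Snhg3 at 2.79 ± 0.925, Snhg5 at 2.6 ± 0.519, Snhg4 at 2.21 ± 0.544 and Snhg7 at 1.08 ± 0.369 FPKM.

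Before the comparisons, the libraries were checked against their labels. Ahcy was at 131 to 214 TPM in the WT libraries and at 2.21 to 4.74 TPM in the KO libraries. Fibroblast markers summed to at least 2100 FPKM or 5730 TPM in each fibroblast library, and SCN neuron markers to at least 199 FPKM in each SCN library. Deposited values summed to 970075 to 980677 per WT or KO library, 258374 to 366414 per DMSO or DZnep fibroblast library and 250552 to 322464 per SCN library, and read depth is unknown. The saline library CT9 replicate 2 stood apart, with an immune marker sum of 967 FPKM against a saline median of 33.4 FPKM. In 7 fibroblast libraries Malat1, a nuclear RNA, exceeded 2 times the arm's median value, and the muscle marker sum reached 373 TPM in WT at CT20. Their part in the results was not tested, except by leaving those libraries out.

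Every host gene that could be tested was lower in fibroblasts treated with DZnep. After rescaling and averaging over both times, 9 of 9 fell (limma with Benjamini-Hochberg adjustment over 10896 genes, adjusted p under 0.05), against a background of 32.7% of all genes tested that fell. The median log2 change of the 9 was -0.857, against 0.00598 for all genes. Log2 changes are on the log2(value + 1) scale, which understates the change of low genes. Snhg11 did not reach the minimum of 1 FPKM in 3 libraries and was not tested. The 4 largest falls were those of Snhg7, Gas5, Snhg5 and Snhg3.

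**Figure D1:**
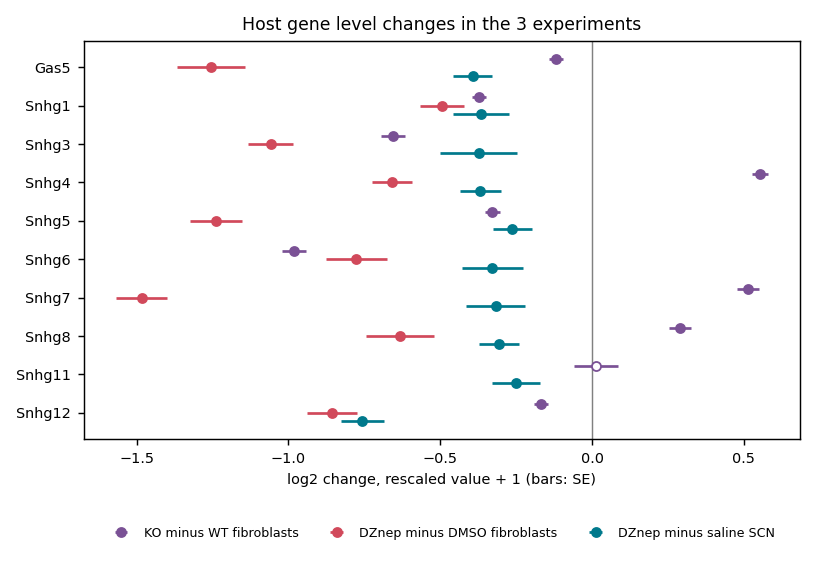
Log2 change of each host gene (x axis, log2 of rescaled value + 1; bars, standard error) in KO against WT fibroblasts, DZnep against DMSO fibroblasts and DZnep against saline SCN; filled points passed the adjusted p threshold of 0.05. All points of both DZnep comparisons lie below 0, while the KO points lie on both sides, from -0.98 for Snhg6 to 0.55 for Snhg4.

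Snhg7, the host of Snora17 and Snora43, had 12.0, 12.4 and 11.1 FPKM in DMSO at CT12 and 8.98, 11.4 and 12.0 FPKM at CT24. With DZnep it had 2.91, 3.47 and 4.13 FPKM at CT12 and 3.18, 3.37 and 4.18 FPKM at CT24. Every DZnep library lay below every DMSO library, and the mean with DZnep was 31.3% of that with DMSO. The log2 change was -1.48 ± 0.0835 (SE, limma adjusted p = 3.78e-08), and only 0.734% of all genes tested had a lower value.

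Gas5 stood at 83.8, 90.7 and 82.0 FPKM in DMSO at CT12 and at 52.1, 87.8 and 78.7 FPKM at CT24. The DZnep libraries held 40, 37.5 and 42.9 FPKM at CT12 and 23.7, 28.9 and 30.7 FPKM at CT24. The arms did not overlap, although 1 DMSO library at CT24 came near the DZnep range. Its log2 change was -1.26 ± 0.112 (limma adjusted p = 1.56e-06), and the mean with DZnep was 42.9% of the DMSO mean.

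Snhg5, which hosts 2 annotated snoRNAs, ranged from 24.0 to 43.7 FPKM (median 36.9) in DMSO and from 9.23 to 22.0 FPKM (median 15.6) with DZnep. Its arms were apart as well, by a small margin, and its log2 change was -1.24 ± 0.0855 (limma adjusted p = 2.01e-07). Snhg12 ranged from 26.3 to 36.1 FPKM in DMSO and from 13.3 to 21.9 FPKM with DZnep, again without overlap, with a log2 change of -0.86 ± 0.0819. These 4 genes were the hosts whose arms were wholly apart, a pattern seen downward in 15.7% of all genes tested.

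The other 5 overlapped between arms when both times were pooled, since several were lower at CT24 in both arms. Snhg3 held 32.6 to 36.1 FPKM in DMSO at CT12 against 15.2 to 16.9 with DZnep, and 12.9 to 19.1 FPKM against 7.21 to 8.10 at CT24. Its log2 change between arms was -1.06 ± 0.0738. Snhg6, Snhg4, Snhg8 and Snhg1 fell by 0.78, 0.66, 0.63 and 0.49 on the log2 scale (limma adjusted p from 3.9e-06 to 0.000391 over these 4). Snhg1, the most abundant, thus had the smallest fall and kept 73.2% of its DMSO level.

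Within each time the separation was complete for all 9 hosts tested. At CT12, 9 of the 9 had every DZnep library below every DMSO library, against 30.5% of all genes tested, and at CT24 it was again 9, against 25.7%. The sum of 6 fibroblast markers was also lower with DZnep (2100 to 2770 FPKM) than with DMSO (3500 to 4730 FPKM), and 5 of these markers fell. Its part in the fall of the hosts was not tested. In bulk RNA, fewer cells of a type and less RNA per cell cannot be told apart.

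**Figure D2:**
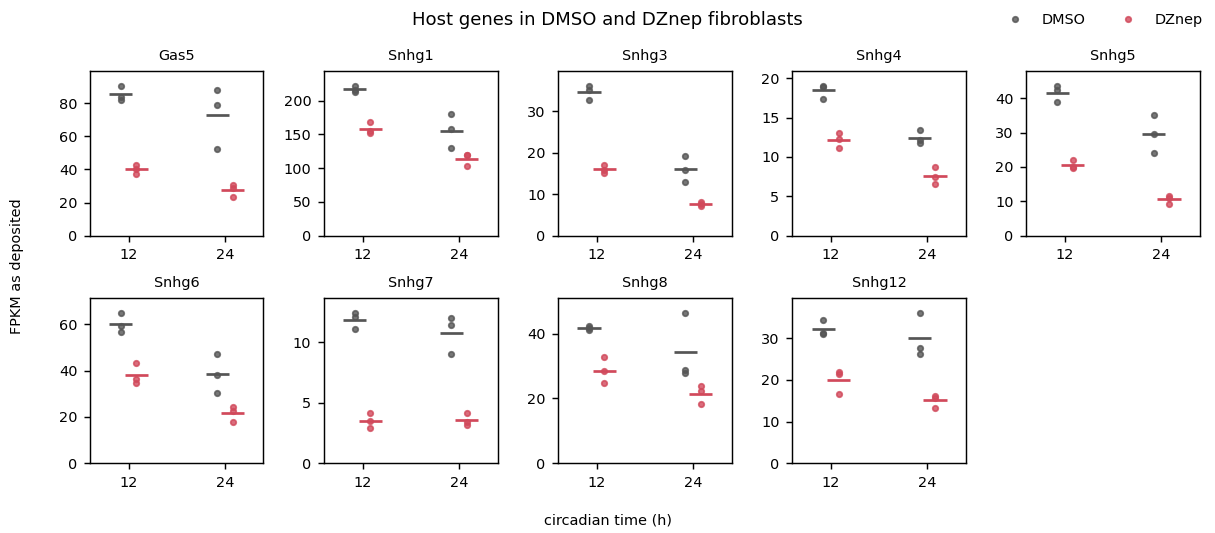
FPKM as deposited (y axis, from 0) of the 9 expressed host genes at CT12 and CT24 (x axis, hours); points are libraries and bars are group means of 3 libraries in DMSO and DZnep fibroblasts. At either time, every DZnep point lies below every DMSO point in each panel, and Snhg7 shows the widest gap relative to its own level.

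Time after synchronization changed some of the same genes in both arms. From CT12 to CT24 in DMSO, 5 of 9 hosts fell (background 23.9% lower), namely Snhg3, Snhg6, Snhg4, Snhg5 and Snhg1. Snhg3, which holds 2 annotated snoRNAs, fell most, by 0.99 ± 0.104 on the log2 scale (limma adjusted p = 3.25e-05), and 1.48% of genes had a lower value. With DZnep, 5 of 9 fell (background 17.8%), and they were the same 5 symbols, with Snhg3 at -0.89 ± 0.104 and Snhg5 at -0.81 ± 0.121. Gas5 had -0.16 in DMSO and -0.43 with DZnep (adjusted p = 0.0501), and Snhg7 had -0.04 and 0.10. Snhg8 had -0.21 and -0.31, and Snhg12 -0.02 and -0.29, and none of these 4 genes passed in either arm. The change with time differed between arms for 0 of 9 hosts in limma (background 6.11%), with 1, Snhg5, at an unadjusted p of 0.0318. For Snhg5 the difference was -0.42 ± 0.171. Without DMSO CT24 replicate 3, the count of hosts that fell in DZnep cells was 8.

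In the SCN all 10 hosts fell with DZnep, with smaller changes on the log2(value + 1) scale for those tested in both experiments. Averaged over the 4 times, 10 of 10 were lower (limma adjusted p under 0.05), against 18.3% of the 13312 genes tested. The median log2 change was -0.347, against -0.005 for all genes. Snhg12 fell most, and the other 9 lay between -0.39 and -0.25. This scale understates the change of low genes. As a share of the saline mean, these 9 kept from 63.8% (Snhg7) to 86.5% (Snhg11). Snhg4 kept 67% here and 63.8% in DZnep fibroblasts, and Snhg1 kept 75.5% and 73.2%. Leaving out the saline library with many immune transcripts left the count at 10. Other transcripts moved with the treatment too: Malat1 fell from 1060 ± 143 to 771 ± 112 FPKM (-0.49 ± 0.095, limma adjusted p = 2e-04). Its log2 fall was larger than that of any host but Snhg12, but the scale understates the falls of the hosts at a few FPKM more than that of Malat1. Of 5 general neuron markers 1 fell, Snap25 (-0.20), and of the 6 genes listed as fibroblast markers 1 fell, Pdgfra (-0.51). Vim, Col1a1, Col1a2, Pdgfrb and S100a4 did not pass, and Pdgfra alone is not read as a fall of fibroblasts in the punches. Of 6 SCN markers 2 rose, Six6 (0.34) and Vip (0.29). No other marker of these lists passed the test. The part of these changes in the fall of the hosts was not tested.

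Snhg12 ranged from 10.2 to 19.4 FPKM (median 13.4) with saline and from 5.39 to 11.9 FPKM (median 7.40) with DZnep. The ranges met only through 1 DZnep library at CT15, replicate 4, with 11.9 FPKM, and saline libraries at 10.2 to 11.9 FPKM. The log2 change was -0.76 ± 0.0698 (limma adjusted p = 7.04e-09), and 0.165% of all genes tested had a lower value. At CT21 the 3 saline libraries held 14.5, 11.2 and 14.7 FPKM and the 4 DZnep libraries 7.36, 6.48, 5.90 and 5.39 FPKM. Its mean with DZnep was 57.5% of the control mean here and 56.3% in fibroblasts.

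Gas5 ranged from 4.47 to 7.52 FPKM (median 5.71) with saline and from 3.54 to 6.63 FPKM (median 4.15) with DZnep. The arms overlapped: the DZnep libraries CT15 replicate 4 (6.63 FPKM) and CT3 replicate 1 (5.38 FPKM) lay among the saline values. The former held the highest Gas5, Snhg1, Snhg11 and Snhg12 values of its arm. Its log2 change was -0.39 ± 0.0635 (limma adjusted p = 2.52e-05). Snhg1, Snhg3 and Snhg4 fell by 0.37 each on the log2 scale, Snhg6 by 0.33, Snhg7 by 0.32, Snhg8 by 0.31 and Snhg5 by 0.26. Of these, Snhg3 had the largest adjusted p, 0.022. Snhg7 was near 1 FPKM, where the pseudocount weighs most: its mean with DZnep was 63.8% of that with saline.

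Snhg11, the abundant host of this tissue, ranged from 89.6 to 126 FPKM (median 105) with saline and from 63.6 to 117 FPKM (median 94.5) with DZnep. Most of the 2 ranges overlapped, and the log2 change was -0.25 ± 0.0794 (limma adjusted p = 0.015). With quantile normalization this gene alone no longer passed (-0.18, adjusted p = 0.104). SCN neuron marker sums ranged from 199 to 554 FPKM with saline and from 231 to 695 FPKM with DZnep, and general neuron marker sums from 312 to 487 and from 300 to 432 FPKM. The part of this in the fall of Snhg11 was not tested.

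The separation within each time was less complete than in fibroblasts. At CT3, CT9, CT15 and CT21 every DZnep library lay below every saline library for 3, 7, 0 and 3 of the 10 hosts, against 4.9%, 5.9%, 3.49% and 7.2% of all genes tested. The mean was lower with DZnep for 38 of the 40 pairs of host and time. The 2 exceptions were Snhg3 and Snhg4 at CT21. Across the whole of both arms, 0 of 10 hosts were apart, as were nearly all genes (0.368% apart downward).

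**Figure D3:**
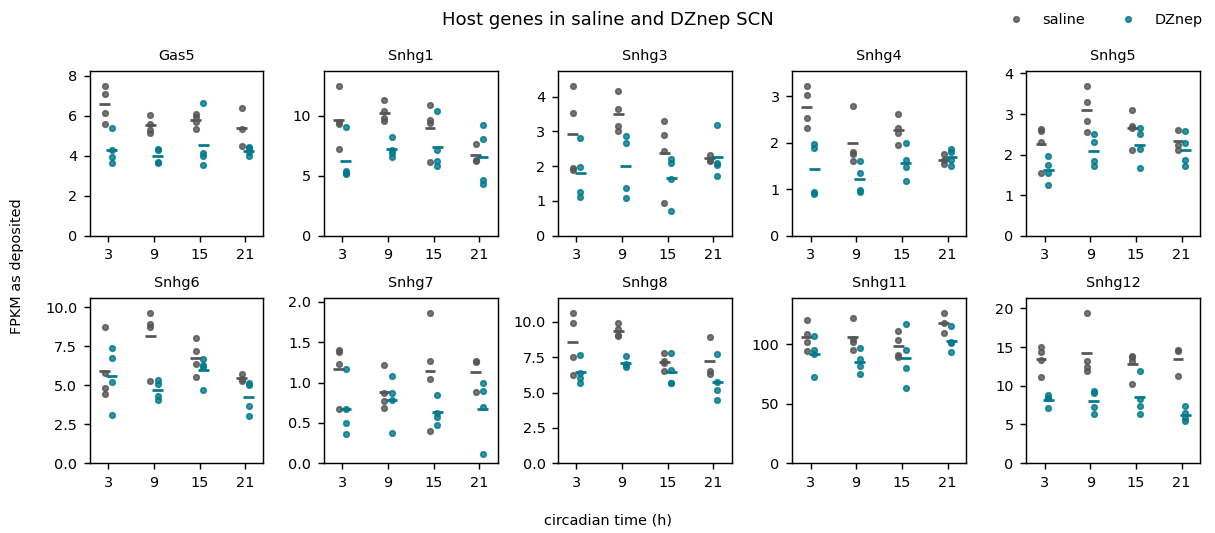
FPKM as deposited (y axis, from 0) of the 10 host genes at 4 circadian times (x axis, hours) in saline and DZnep SCN; points are libraries, bars are group means of 3 or 4 libraries. The Snhg12 libraries of the arms are apart at 3 of the 4 times, and Snhg11 lies near 100 FPKM while the other panels stay under 20 FPKM.

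None of the hosts had a 24 h rhythm in the SCN by the limma F test of a 24 h sine and cosine. In saline SCN 0 of 10 passed (background 18.3%), with 2 at an unadjusted p under 0.05, Snhg8 (0.011) and Snhg1 (0.0269). In DZnep SCN 0 of 10 passed (background 10.2%), and for the difference of rhythm between arms 0 of 10 (background 0.308%), with 0 at an unadjusted p under 0.05 in either. Without saline CT3 replicate 2 or 3, saline CT21 replicate 1, or DZnep CT21 replicate 1, 1 host passed in saline SCN. A p over the threshold does not show that these genes were constant over the day.

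Between the KO and WT lines the hosts did not differ in one direction. The p-values of this comparison rest on the spread among libraries of each line, and the number of knockout clones is not given. Between KO and WT fibroblasts 9 of 10 passed the test, but so did 89.6% of all 13603 genes tested, so that the count says nothing particular of the hosts. After rescaling, 3 were higher in KO (background 42.6%) and 6 lower (background 47%), with a median of -0.144 against -0.0455 for all genes. With values as deposited the split was 5 higher and 4 lower, because the rescaling shifts the arms by 0.219 on the log2 scale. Gas5 and Snhg12 are the genes whose sign depends on it, and they are given only with both values. The fibroblast marker sum was lower in every KO library (5730 to 7380 TPM) than in every WT library (7700 to 10200 TPM), with 4 of the 6 markers lower and 2 higher, from -2.47 for Col1a1 to 1.95 for Pdgfra. Its part in the differences of the hosts was not tested.

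Snhg6, the host of Snord87, was lower in every KO library, at 79.3 to 107 TPM (median 94.1) against 134 to 197 TPM (median 154) in WT. Its log2 change was -0.98 ± 0.04 (limma adjusted p = 3.65e-19). Snhg4, the host of Snora74a, was higher in every KO library, at 73.0 to 95.6 TPM (median 80.4) against 29.8 to 56.3 TPM (median 48.6) in WT, with a log2 change of 0.55 ± 0.0254. Arms wholly apart in one or the other direction were found for 45.9% of all genes tested. Snhg7 and Snhg8 rose by 0.51 ± 0.0368 and 0.29 ± 0.0375 on the log2 scale. With values as deposited their arms were wholly apart as well: the highest WT and lowest KO libraries held 34.0 and 37.5 TPM of Snhg7, and 114 and 122 TPM of Snhg8. After rescaling these arms overlapped. Both genes had fallen with DZnep in fibroblasts, as had Snhg4.

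Snhg3, Snhg1 and Snhg5 were lower in KO by log2 changes of -0.66 ± 0.0403, -0.37 ± 0.0226 and -0.33 ± 0.0258. Gas5 had 182 to 238 TPM (median 191) in WT and 197 to 231 TPM (median 209) in KO, ranges that lie largely on each other. Its log2 change was -0.12 ± 0.022 after rescaling and 0.10 with values as deposited. Snhg12 had -0.17 after rescaling and 0.05 as deposited. Snhg11, at 0.638 to 2.12 TPM in WT and 0.792 to 2.2 TPM in KO, did not pass (0.01 ± 0.0729, adjusted p = 0.858), though with quantile normalization it did (0.29).

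**Figure D4:**
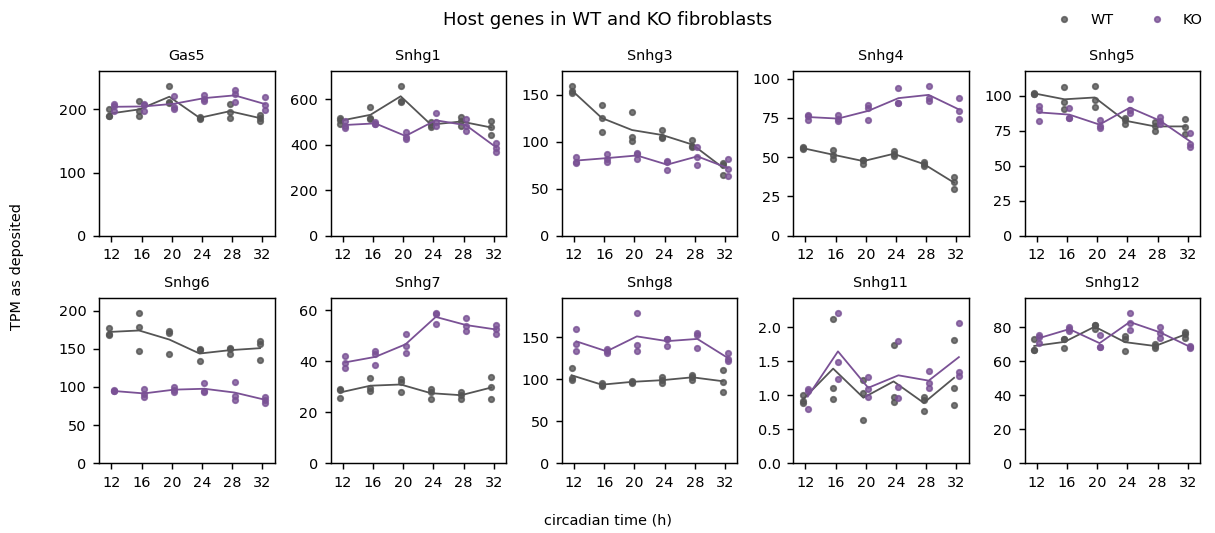
TPM as deposited (y axis, from 0) of the 10 host genes from 12 to 32 h after synchronization (x axis) in WT and KO fibroblasts; points are libraries and lines join group means of 3 libraries. On this scale Snhg6 (lower in KO) and Snhg4, Snhg7 and Snhg8 (higher in KO) are apart between arms at all 6 times, and the Snhg3 curves meet at 32 h.

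The distance between the arms depended on time for several hosts. The Snhg3 mean in WT went down at every step, from 154.9 ± 4.24 TPM at CT12 through 107 ± 5.04 at CT24 to 72.6 ± 7.26 at CT32 (SD, n = 3). In KO it stayed between 72.1 and 85.4 TPM at all times, and its mean at CT32 was 72.1 TPM. Snhg4 in WT went from 55.7 ± 0.53 TPM at CT12 to 33.8 ± 3.73 at CT32, while in KO it was 75.6 ± 1.8 and 80.4 ± 6.6 TPM. Snhg7 in KO went from 39.6 ± 2.28 TPM at CT12 to 57.4 ± 2.41 at CT24 and 52.4 ± 1.79 at CT32, whereas in WT it lay between 26.7 and 30.9 TPM.

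In the limma F test for a 24 h shape, 5 of 10 hosts passed in WT (background 36.5%), namely Snhg1, Snhg3, Snhg4, Snhg5 and Snhg6. The same 5 symbols fell from CT12 to CT24 in DMSO fibroblasts, but the share of all genes that passed both tests was not counted. The courses were not alike for all of them. From CT12 to CT24 in WT, Snhg1 went from 506 ± 12.4 to 489 ± 12.6 TPM and Snhg4 from 55.7 ± 0.53 to 52.1 ± 1.85 TPM. The fitted log2 amplitudes of the 5 in WT were between 0.13 for Snhg1 and 0.31 for Snhg3. The median over all 10 hosts was 0.105 against 0.0989 for all genes. In KO 1 of 10 passed (background 9.89%), Snhg7, with an amplitude of 0.26 (adjusted p = 7.27e-05). The 20 h that were sampled do not hold a full day, and a drift such as that of Snhg3 also passes this test: with a linear trend added, 2 passed in WT and 4 in KO. Of all 13603 genes, 4228 passed in WT and 907 in KO with that trend. Without WT CT16 replicate 2, WT CT32 replicate 1 or WT CT32 replicate 2, 3 passed in WT. The first and the last of these are libraries with high Malat1. The 3 WT libraries at CT20 had muscle marker sums of 274, 277 and 373 TPM, against at most 2.25 TPM in the other WT libraries, and Snhg1 in WT was highest at that time (614 ± 40.7 TPM, against means of 476.3 to 532.3 TPM at the others). Without CT20, 4 hosts passed in WT, Snhg1 no longer among them (adjusted p = 0.423), and 4 in KO, namely Snhg1, Snhg5, Snhg7 and Snhg12. Of the 13517 genes tested without CT20, 6242 passed in WT and 1836 in KO.

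The shape itself differed between the lines for 2 of 10 hosts (background 14.5%). Snhg7 differed by an amplitude of 0.32 (limma adjusted p = 0.000372) and Snhg4 by 0.27 (adjusted p = 0.0479). At an unadjusted p under 0.05 there were 5. The call for Snhg4 was close to the threshold, and the count was 1 without any single one of many libraries, which are named in the closing paragraphs.

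Slc3a2 and Rcc1, which start close to a host, moved opposite to it in both fibroblast experiments. Slc3a2, which encodes the heavy chain of amino acid transporters, starts 106 bases from Snhg1 on the other strand. With DZnep in fibroblasts Slc3a2 rose from 41.4 ± 4.69 to 70.7 ± 6.35 FPKM (log2 change 0.71 ± 0.058, limma adjusted p = 7.46e-07), while Snhg1 fell. In KO it was higher too, by 0.35 ± 0.015, while Snhg1 was lower. Rcc1, the nucleotide exchange factor of Ran, starts 81 bases from Snhg3 on the same strand and overlaps it. It rose by 0.40 ± 0.048 with DZnep in fibroblasts and by 0.73 ± 0.018 in KO, both comparisons in which Snhg3 fell. Zbtb37, which overlaps Gas5 by 428 bases on the other strand, went from 1.81 ± 1.12 to 3.21 ± 0.724 FPKM with DZnep in fibroblasts (limma adjusted p = 0.0209). In KO it had 0.10 (adjusted p = 0.211), and 0.29 with values as deposited (adjusted p = 0.00095). In the SCN Slc3a2, Rcc1 and Zbtb37 did not pass the test after rescaling. Slc3a2 did pass there, upward, with values as deposited (0.11, limma adjusted p = 0.0366) and with quantile normalization (0.09, adjusted p = 0.0484). No source used here gives the strand setting of the authors' counting, and reads from Gas5 and Zbtb37, from Snhg6 and Mcmdc2, and from the shared exons of Rcc1 and Snhg3 may be mixed. Gm17300, a noncoding gene that overlaps Snhg3 by 1611 bases on the other strand, was not analysed here. Neighbours of Snhg4 and Snhg7 were not looked for, since the gene annotation used for this search held no entry for them. Mcmdc2, which overlaps Snhg6, had -0.37 ± 0.097 in KO after rescaling (adjusted p = 0.000938), but -0.18 with values as deposited (adjusted p = 0.0897).

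The snoRNAs inside the hosts were measured poorly in these libraries, which are not made for RNAs of this length. Of 31 snoRNA genes annotated within the 10 hosts, 11 were found by the annotation's symbol among the deposited values. The snoRNAs of Gas5 except Snord47, of Snhg1 except Snord22, and of Snhg5 carry placeholder names in the annotation. They may be listed under other symbols, so the counts below leave out most snoRNAs of these hosts. In the SCN 4 of these 11 were listed at 0 in all 31 libraries, while Snord22 reached 3240 FPKM there. In DZnep fibroblasts 4 of 11 fell and 0 rose (background 32.7% lower): Snora43 (-1.25) and Snora17 (-0.95) of Snhg7, Snora61 (-0.82) of Snhg12 and Snora24 (-0.42) of Snhg8. With quantile normalization Snora24 missed the threshold there (adjusted p = 0.0684). In the SCN 0 of the 7 tested passed in limma. In KO 2 of the 10 tested were higher (background 42.6%), Snora43 and Snora74a, both in hosts that were also higher. Another 1 was lower (background 47%), Snord22, which is positive with values as deposited (-0.12 against 0.10). With values as deposited 6 were higher and 0 lower, and with quantile normalization 4 were higher and 1 lower. Whether such reads come from the snoRNA or from unspliced host RNA cannot be told apart here.

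Related genes were listed to place the hosts, and their counts are to be read against all genes tested: 33.1% rose and 32.7% fell in DZnep fibroblasts, 16.9% and 18.3% in the SCN, and 42.6% and 47% in KO. Ribosomal protein genes that themselves host snoRNAs also fell under DZnep. All 18 fell in all 3 level comparisons, with medians of -0.851 in DZnep fibroblasts, -0.335 in the SCN and -0.672 in KO. The KO result depended on the scaling: 16 fell and 1 rose with values as deposited (median -0.453), and 11 fell and 6 rose with quantile normalization (median -0.124). Under DZnep, 17 and 16 fell in fibroblasts with these scalings and 18 in the SCN with either. Rpl3 fell from 318 ± 30.5 to 212 ± 33.4 FPKM in the SCN, and Rps12 from 8410 ± 644 to 3470 ± 176 TPM in KO. Other protein-coding hosts were mixed: 8 of 20 rose and 6 fell in DZnep fibroblasts (median 0.103), 2 rose and 6 fell in the SCN (median -0.049), and 11 rose and 9 fell in KO (median 0.0983, or 13 and 5 with values as deposited). Among them Eif4a2, a translation initiation helicase, fell in both DZnep comparisons (-0.72 and -0.56), and Nop58, a core snoRNP protein, rose in DZnep fibroblasts (0.67).

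Proteins that assemble with snoRNAs moved mostly upward in both fibroblast experiments. Nop56, Nop58 and Dkc1 are counted both here and among the other protein-coding hosts. In DZnep fibroblasts 12 of 19 rose and 2 fell (median 0.276), with Nolc1 going from 29.1 ± 14.3 to 55.6 ± 18.9 FPKM and Dkc1, the pseudouridine synthase, from 20 ± 9.78 to 29.9 ± 10.8 FPKM. In KO 15 of 19 rose and 3 fell (median 0.341), with Nop56 going from 140 ± 45.4 to 379 ± 32.7 TPM. In the SCN 3 rose and 3 fell, and Fbl, the ribosomal RNA methyltransferase fibrillarin, fell by 0.28 ± 0.051 on the log2 scale. Factors of nonsense-mediated decay and the exon junction were mixed, with 3 of 18 higher and 4 lower in DZnep fibroblasts, 5 and 1 in the SCN, and 9 and 7 in KO (14 and 2 with values as deposited). Smg5 rose in DZnep fibroblasts (0.40) and in KO (1.71), while Dhx34 fell in both (-0.32 and -1.27). Smg9 fell in DZnep fibroblasts (-0.73), and Upf1, the central helicase of this decay, rose in the SCN (0.09).

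A list of further noncoding hosts was counted in the same way. In DZnep fibroblasts 4 of these 12 further hosts were found and 3 were tested (median -0.25). Of the 3, 1 passed, Snhg15, which rose from 17 ± 6.41 to 35 ± 7.63 FPKM, opposite to the 9 listed hosts. Dancr (-0.25, limma adjusted p = 0.059) and Snhg10 (-0.30, limma adjusted p = 0.1) did not pass. In the SCN 6 of 11 fell and 0 rose (median -0.188), among them Zfas1 from 6.19 ± 0.994 to 4.41 ± 1.26 FPKM and Snhg20 from 8.24 ± 1.34 to 6.49 ± 1.32 FPKM. In KO 4 of 10 were higher and 6 lower (5 and 4 with values as deposited), with Snhg18 lowest at -1.11 ± 0.03.

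**Figure D5:**
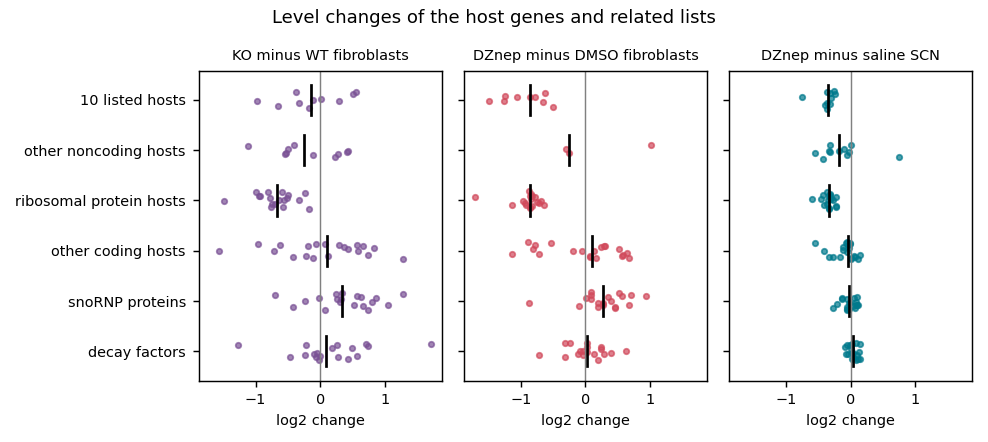
Log2 change (x axis) of each tested gene (points) of the 10 listed hosts and of 5 related lists in the 3 level comparisons; black bars are list medians and vertical scatter carries no value. Nop56, Nop58 and Dkc1 are in both the list of other coding hosts and that of snoRNP proteins. With the rescaling used, ribosomal protein hosts lie left of 0 in all 3 panels (in KO 6 of 18 were higher with quantile normalization), snoRNP proteins lie mostly right of 0 in both fibroblast panels, and all tested listed hosts lie left of 0 in both DZnep panels.

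Gas5 was used to ask which genes had the most similar pattern. Over the 24 group means, centred within each experiment, the smallest root mean square differences on the log2 scale were those of Rps24 (0.109), Rps3a1 (0.112), Mnd1 (0.113), Mmab (0.122) and Rpl12 (0.125). Rps24, Rps3a1 and Rpl12 encode ribosomal proteins, whose share among all ranked genes is not given here. The nearest other host was Snhg12 at rank 30 (0.166), followed by Snhg5 at rank 37 (0.172). Snhg1 was at rank 166, Snhg8 at 218, Snhg7 at 726, Snhg4 at 1681, Snhg3 at 1951 and Snhg6 at 3806.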

How the data were processed

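Gene-level values deposited by the authors were used for 79 libraries. Per the submitters' processing notes, reads were processed with bcl2fastq 2.18.0.12, Trimmomatic 0.36, TopHat2 2.1.1 and Cufflinks 2.2.1 on mm10. The annotation and strand setting are not stated there. The deposited WT and KO values behave as TPM and the other deposited values as FPKM, judged from the values, since no header names a unit. Fibroblast libraries came from the TruSeq RNA kit v2 and SCN libraries from the SMARTer stranded total RNA pico kit v2, per the labels' protocols. Labels call the replicates biological, with no further source named. Repeated names in the SCN tables (280, none a host) were averaged.

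Within each experiment the values were rescaled by median ratios, log2(value + 1) was fitted with limma 3.58.1 (trend, R 4.3.3) over all genes that reached 1 in 3 libraries or more, and p-values were adjusted by Benjamini-Hochberg at 0.05. Level contrasts average over times, and rhythm tests are joint F tests of 24 h terms. The fits were tested on simulated data. The hosts and lists were chosen with earlier results of these data known. All 10 hosts were tested where they passed the filter and are named or counted in each comparison, other lists by count with up to 4 called genes of smallest p. Overlapping or head-to-head genes and the 5 genes most like Gas5 are named too. Such neighbours were looked for only at the 8 hosts with a GENCODE vM21 entry, not at Snhg4 and Snhg7. Single snoRNAs and Eif4a2 in fibroblasts were chosen after their values were seen. Alternatives were a pseudocount of 0.1, no rescaling, quantile normalization, no filter, a mean of 5 or more, a replicate block, fewer libraries and other time shapes.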

Additional observations from a re-analysis of the deposited data

Results flagged for a closer look

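For each host in each SCN group of 4 libraries, 70 sets in all, the highest and lowest library were compared with the rest, and chance alone would set about 1 in 20 sets apart. Snhg1 in DZnep SCN at CT3 was 9.08 FPKM in replicate 2, against 5.15 to 5.38 FPKM in the other 3 libraries. Snhg4 in saline SCN at CT9 was 2.79 FPKM in replicate 1, against 1.61 to 1.81 FPKM in the others. The time courses of KO and WT fibroblasts differed for Snhg4, by a fitted log2 amplitude of 0.274 (limma adjusted p = 0.0479), and for Snhg7, by 0.32 (adjusted p = 0.000372).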

How the results depend on the processing

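The level counts of 9 (DZnep fibroblasts), 10 (SCN) and 9 (KO) were unchanged when each library was left out in turn. With quantile normalization they were 9 in the SCN, where Snhg11 was lost, and 10 in KO, where it was gained. With a mean of 5 or more, 6 hosts were tested in the SCN and 6 fell. Gas5 and Snhg12 turned sign in KO with values as deposited (0.10 and 0.047), because the rescaling shift was absent. Snhg11 in KO ranged from -0.0097 to 0.0508 over left-out libraries. The count of hosts with a KO against WT difference in rhythm, 2, was 1 with a pseudocount of 0.1, without a filter, with the replicate block and without the high Malat1 libraries, and 7 for any difference among times. The test for any difference was passed by 7103 of all 13603 genes. WT rhythm, 5, was 3 with quantile normalization, 2 without the high Malat1 libraries and 2 with a linear trend. Of all genes, 5003 of 13603, 3575 of 13351 and 4228 of 13603 passed in these fits, in that order. KO rhythm, 1, was 5 for any difference among times, 4 without CT20 and 4 with a linear trend. There, 5813 of 13603, 1836 of 13517 and 907 of 13603 genes passed, in that order. The DMSO time change, 5, was 3 with quantile normalization, where 2573 of 10896 genes fell. Saline SCN rhythm, 0, was 1 with a mean of 5 or more (1952 of 7754 genes passed) and 1 with the replicate block (2284 of 13312). Where no reason is given, the cause was not tested.

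Over left-out libraries the counts ranged from 3 to 6 for WT rhythm, 1 to 1 for KO rhythm, 1 to 3 for their difference, 4 to 6 for the DMSO time change, 4 to 8 for the DZnep fibroblast time change and 0 to 1 for saline SCN rhythm. The rhythm difference was 1 without any one WT library at CT12, WT CT16 replicate 2 or 3, WT CT28 replicate 3, WT CT32 replicate 2 or 3, any KO library from CT12 to CT28, or KO CT32 replicate 1 or 3. Correlations of deviations between same-numbered replicates ranged from -0.18 to 0.21, -0.28 to 0.23 and -0.16 to 0.13 in KO and WT, DZnep fibroblasts and SCN. They were over 0.1 in 5 of 18, 3 of 6 and 1 of 15 pairs, so the numbers were not taken to pair samples. The replicate block changed no level count. Read depth is unknown and sets no stated limit.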
